A study of Rattus norvegicus with 19 samples.

Results

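The proteasome genes of the rat were followed in mammary carcinomas and normal mammary glands. Members were all array probes, control spots left out, whose RefSeq accession belongs to a gene with a symbol starting with Psma, Psmb, Psmc, Psmd, Psme or Psmf. This gave 44 genes with 49 probes, out of 18005 probes with a symbol for 15168 genes, and all 44 genes were among the 12803 genes tested. Of these, 42 encode proteasome subunits, assembly chaperones, activator caps or a regulator. The other 2, Psmc3ip and Psme3ip1, share only the start of the symbol and are named for partners of Psmc3 and Psme3. Psmd11, Psmb11, Psmb3l1, Psmb3l2 and Psmb6l1 were not analysed here.

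RNA came from 13 mammary carcinomas that the labels call radiation-induced and from 6 normal mammary glands. All animals were females of 1 cross, the F1 hybrid between Sprague-Dawley and Copenhagen rats, with no other genotype given. Animals had either no treatment or 4 Gy of whole-body gamma rays when 7 weeks old, and which of the normal glands came from irradiated animals is not given, nor is the age at which tissue was taken. Each sample was hybridised to 1 single-colour Agilent array, a field of probe spots on a glass slide shared with other arrays. The brightness of each spot follows the amount of labelled RNA. Nothing in the labels says that samples came from separate animals, so p-values measure only the spread between these samples.

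The proteasome is the large protease that degrades ubiquitin-tagged proteins. Its core particle is a barrel of stacked rings: outer alpha rings that gate entry, and inner beta rings that hold the protease sites. The regulatory particle, built of ATPases and non-ATPase subunits, binds ubiquitin chains and feeds unfolded substrate into the core. Interferon and immune cells bring in Psmb8, Psmb9 and Psmb10, which take the places of the constitutive protease subunits Psmb5, Psmb6 and Psmb7 and form the immunoproteasome, a source of peptides for class I antigen presentation. Mammary glands are mostly fat with embedded epithelium, vessels and immune cells.

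Most proteasome genes did not pass the test between carcinomas and normal glands, and 1 immunoproteasome subunit stood apart. Psmb10 was lower in every carcinoma than in any normal gland, a separation that 1.93% of all genes tested showed. Its group means differed by 0.96 on the log2 scale, which is 1.94-fold. Psmb8 and Psmb9, the other immunoproteasome subunits, did not pass the test. Of the constitutive core, Psmb4, Psmb6 and Psma6 fell and Psma1 rose. Of the genes of the regulatory particle, Psmd12 rose and the assembly chaperone Psmd9 fell, and none of the activator caps passed. Among these calls only those of Psmb10 and Psmb4 held in every fit that left out 1 sample. No call held with array brightness or a score of leukocyte markers as a covariate, and brightness largely went with the group.

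Of the 42 genes, carcinomas had 2 at higher and 5 at lower levels than normal glands, and 35 gave no call, by limma with Benjamini-Hochberg adjustment over 12803 genes and a threshold of 0.05 (13 carcinomas and 6 normal glands throughout). Over all genes tested, 9.7% were higher, 13.2% were lower and 22.9% passed in either direction. The shares among proteasome genes, 4.76% higher and 11.9% lower, were therefore below the shares over all genes. The median log2 difference was -0.12 for the 42 genes and 0.01 for all genes tested. Before adjustment, 15 of the 42 had a limma p under 0.05, as did 4544 of the 12803 genes tested, which is a similar share. With array brightness or the leukocyte score as a covariate, none of the 42 passed. Single samples moved these counts. With 1 normal gland left out, the lower genes numbered 8 (gland 1), 2 (gland 2), 2 (gland 3), 3 (gland 4) or 9 (gland 6). The higher genes numbered 0 without normal gland 3, and 1 without any of normal glands 1, 2, 4 and 5 or any of carcinomas 2, 5, 7, 9, 10, 11, 12 and 13. A background correction by normexp called 929 genes higher and 5269 lower over all genes, against 1242 and 1692 here, with a median over all genes of -0.37, and 3 and 5 among the 42.

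**Figure D1:**
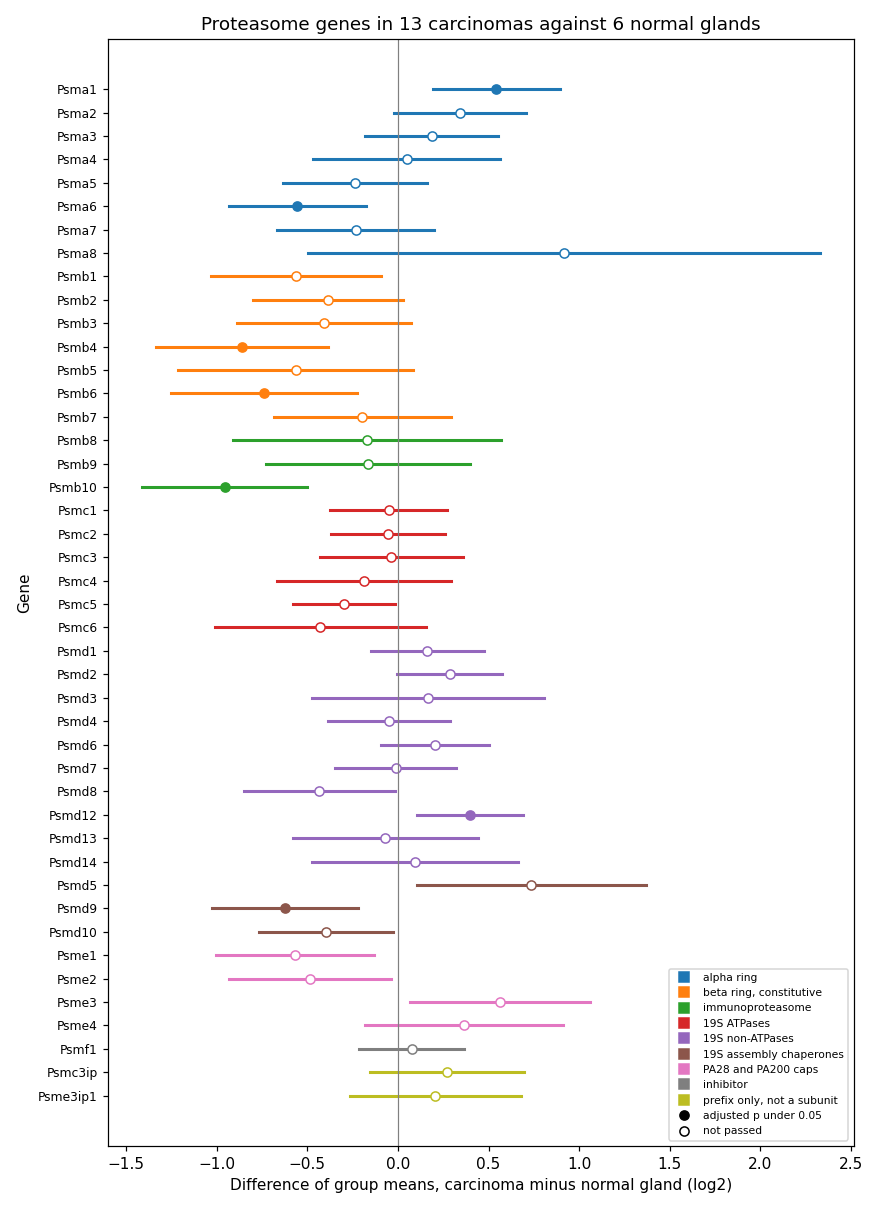
Difference of group means (log2, carcinoma minus normal gland) with its 95% interval for each of the 44 genes, coloured by role, with filled points for genes that passed. Psmb10, at -0.96, lies farthest below 0 and the 7 genes of the constitutive beta ring all lie below 0, while Psma8 has the widest interval.

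Carcinoma arrays were brighter, with a 75th percentile of the intensity of 485 to 1428 in carcinomas and of 295.5 to 673 in normal glands, and the spots well above background made up 62.3 to 84.2% in carcinomas and 65.5 to 77.2% in normal glands. All arrays measured every member well above background except for Psma8. The arrays lay on 3 slides, with 4 carcinomas and 3 normal glands on slide 1, 4 and 2 on slide 2, which was scanned on another day, and 5 and 1 on slide 3. Marker genes of other cells moved with the groups: 10 of 10 adipocyte markers, 14 of 22 leukocyte markers and 7 of 8 endothelial markers tested were lower in carcinomas, and 5 of 16 luminal epithelial markers and 4 of 9 cell cycle genes were higher. Over all genes tested, 13.2% were lower and 9.7% higher. The smallest adjusted p in these lists belonged to the fat genes Retn (-8.55), Aqp7 (-7.15, 2 of 13 carcinoma arrays well above background) and Cidec (-6.65), the endothelial genes Pecam1 (-2.33), Esam (-2.09) and Emcn (-1.95), the luminal genes Cdh1 (1.18), Ovol1 (1.16) and Gata3 (1.60) and the cell cycle genes Plk1 (1.79), Bub1 (1.74) and Ccnb1 (1.51), as log2 differences. The leukocyte score, the mean of the centred markers, was -1.55 to 0.83 in carcinomas and 0.40 to 2.29 in normal glands. In bulk tissue, fewer cells of a type and less RNA per cell cannot be told apart.

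Values below are log2 intensities relative to the 75th percentile of the same array, so 0 is that percentile, and differences are carcinoma minus normal gland with the standard error of the limma fit. Levels of different genes are not set against each other, because each probe has its own brightness. The immunoproteasome subunits come first. Their promoters are shown because 2 of the 3, and the cap gene Psme2, hold a match to the core sequence bound by interferon regulatory factors. Windows are RefSeq's, on GRCr8, from 250 bases before to 50 bases after the annotated start, read 5′ to 3′ along the gene. Capitals mark matches on either strand to the interferon regulatory factor core, which is GAAA, any 2 bases and GAAA again, to TTCNNNGAA, the STAT element, and, for the genes of the constitutive core shown further on, to TGACNNNGC, the element bound by Nfe2l1 and related factors. No capital stretches overlap in the windows shown. The Psmb8 window is chr20:4656982-4657281, minus strand, and its interferon factor match begins 4 bases before the start. The Psmb10 window is chr19:50743243-50743542, minus strand, with matches beginning 73 and 17 bases before the start. The Psme2 window is chr15:33052702-33053001, minus strand, with a match 53 bases before the start. The Psmb9 window, chr20:4668750-4669049, plus strand, holds none of the 3.
Psmb8: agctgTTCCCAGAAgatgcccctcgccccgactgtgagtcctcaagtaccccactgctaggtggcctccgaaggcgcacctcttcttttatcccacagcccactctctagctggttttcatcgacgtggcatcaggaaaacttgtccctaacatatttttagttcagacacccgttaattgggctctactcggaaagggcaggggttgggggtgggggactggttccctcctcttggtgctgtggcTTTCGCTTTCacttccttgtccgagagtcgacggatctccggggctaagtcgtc
Psmb10: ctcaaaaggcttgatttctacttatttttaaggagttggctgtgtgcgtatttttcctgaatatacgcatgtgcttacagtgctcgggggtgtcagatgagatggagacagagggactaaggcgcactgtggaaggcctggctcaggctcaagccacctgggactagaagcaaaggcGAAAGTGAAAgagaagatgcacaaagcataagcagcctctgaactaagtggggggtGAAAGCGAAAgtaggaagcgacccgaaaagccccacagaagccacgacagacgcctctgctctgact
Psme2: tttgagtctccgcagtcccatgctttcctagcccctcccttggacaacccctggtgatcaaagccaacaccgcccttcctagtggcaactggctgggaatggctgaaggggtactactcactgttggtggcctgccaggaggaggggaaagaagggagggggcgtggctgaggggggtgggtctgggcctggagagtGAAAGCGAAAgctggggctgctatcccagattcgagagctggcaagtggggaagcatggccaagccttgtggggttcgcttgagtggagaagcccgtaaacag
Psmb9: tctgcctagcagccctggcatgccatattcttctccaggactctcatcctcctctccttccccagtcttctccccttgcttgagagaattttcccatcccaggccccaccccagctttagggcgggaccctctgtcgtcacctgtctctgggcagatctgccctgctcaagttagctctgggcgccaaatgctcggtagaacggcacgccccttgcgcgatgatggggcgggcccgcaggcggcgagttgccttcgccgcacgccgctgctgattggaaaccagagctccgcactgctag

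Of the 44 genes, 40 had a window. The interferon factor core was present in 6 of these 40, or 15.0%, against 3.92% of the 33469 windows of all genes: in Psmb8, Psmb10 and Psme2, and in Psma4, Psmb3 and Psmd7 of the constitutive particle. TTCNNNGAA was present in 4 of 40, or 10.0%, against 8.87%, and CCAAT, a common promoter box, in 22 of 40, or 55.0%, against 37.5%. Tap1, which encodes a subunit of the peptide transporter, lies beside Psmb9 and runs the other way: their start sites are 457 bases apart and their windows share 44 bases. The Tap1 window holds 1 match to the interferon factor core, although the Psmb9 window holds none. A match of letters is a description of the window, and a window without one says nothing about the factor.

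Psmb10, the inducible subunit that replaces the trypsin-like Psmb7, had a lowest value of 2.43, a median of 3.46 and a highest of 3.83 in carcinomas, against 3.96, 4.12 and 4.66 in normal glands. The highest carcinoma lay below the lowest normal gland, a separation in this direction that 1.93% of all genes tested showed. The difference was -0.96 ± 0.22 (SE, adjusted p = 0.0044), and the 95% interval ran from -1.41 to -0.50. In every fit that left out 1 of the 19 samples Psmb10 passed, with adjusted p of 0.0033 to 0.0174. Among number-coded samples alone (codes are described below) it was -1.14 (adjusted p = 0.0031). Within slides it was -1.43 on slide 1 (adjusted p = 0.0437), -1.08 on slide 2 (0.126) and -0.27 on slide 3 (0.883), where the only normal gland was gland 6. With the leukocyte score as a covariate it was -0.67 and did not pass (adjusted p = 0.431), a fit in which 22 genes of all tested were higher and 141 lower. With the brightness of the array as a covariate it was -0.96 (adjusted p = 0.256). The part of leukocyte content and brightness in the difference was otherwise not tested.

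Psmb8, which replaces the chymotrypsin-like Psmb5, had a lowest value of 0.78, a median of 2.24 and a highest of 3.15 in carcinomas, against 1.07, 2.50 and 2.97 in normal glands. Over all samples both groups covered nearly the same range, and the difference of -0.17 ± 0.36 did not pass (adjusted p = 0.770, 95% interval -0.91 to 0.57). The lowest normal value was that of gland 6, which is letter-coded. Number-coded normal glands ran from 2.42 to 2.97. Number-coded carcinomas ran from 1.91 to 3.15, and those outside their 5 highest were at most 2.28. Psmb9, which replaces the caspase-like Psmb6, ran from 2.43 over a median of 3.23 to 4.31 in carcinomas, against 2.50, 3.39 and 4.05 in normal glands. Over all samples its groups overlapped over nearly their whole range as well, with a difference of -0.16 ± 0.27 (adjusted p = 0.710, 95% interval -0.73 to 0.40). Again gland 6 had the lowest normal value, and number-coded normal glands ran from 3.15 to 4.05. Number-coded carcinomas ran from 2.43 to 4.31, and those outside their 5 highest were at most 2.90. The 3 subunits thus had 1 fall and 2 genes that did not pass, and the median of their differences was -0.17.

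**Figure D2:**
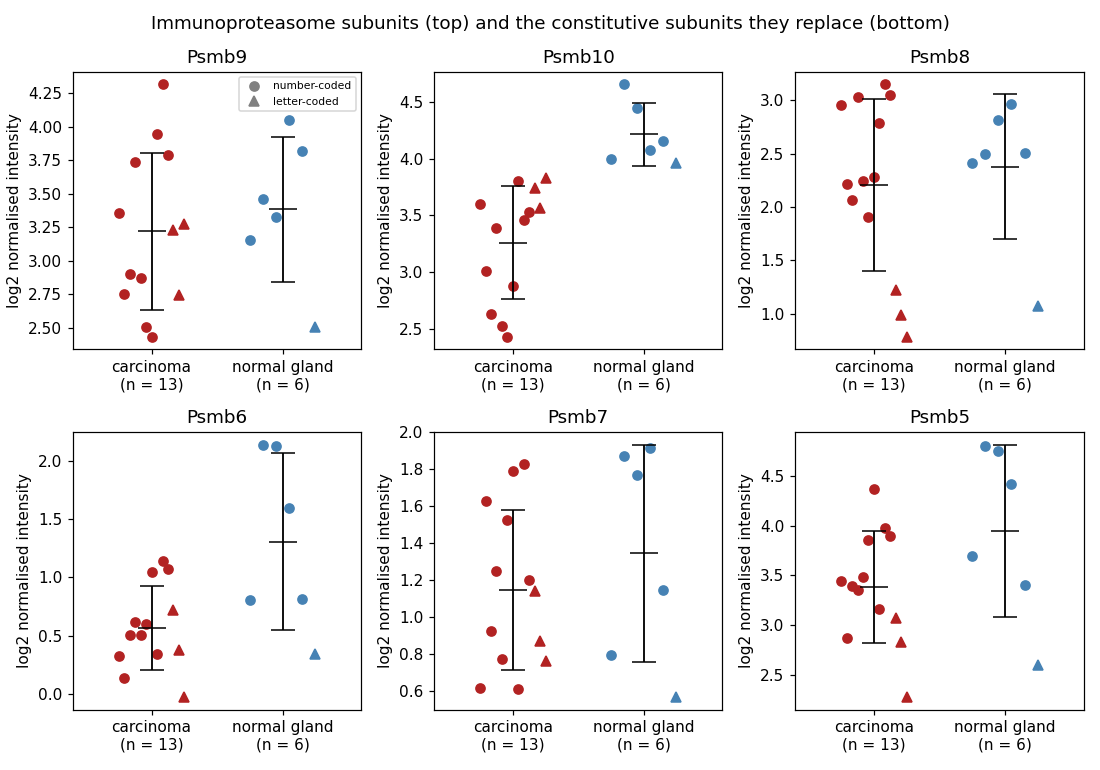
Log2 intensity relative to the array's 75th percentile in each of 13 carcinomas (left in each panel, red) and 6 normal glands (right, blue), for the inducible subunits (top) and the constitutive subunit each replaces (bottom). Bars give mean ± SD, and triangles are letter-coded samples. Only for Psmb10 among these 6 genes do the groups not overlap, and the letter-coded samples have the 4 lowest Psmb8 values.

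Each inducible subunit was set against the constitutive subunit it replaces, by the difference of their log2 values within an array. Such a difference shows only whether both genes changed equally. Psmb10 minus Psmb7 averaged 2.11 ± 0.77 in carcinomas and 2.87 ± 0.44 in normal glands (SD, n = 13 and 6), a shift of -0.76 with a 2-sided exact permutation p of 0.0396 and 0.119 after adjustment over the 3 pairs. Psmb9 minus Psmb6 averaged 2.65 ± 0.60 in carcinomas and 2.08 ± 0.70 in normal glands, a shift of 0.58 (exact permutation p = 0.0826, adjusted 0.124). Psmb8 minus Psmb5 averaged -1.18 ± 0.63 in carcinomas and -1.57 ± 0.49 in normal glands, a shift of 0.39 (exact permutation p = 0.198, adjusted 0.198). No pair passed after adjustment, and the shifts had different signs, the Psmb10 pair down and the others up. Within slide 2 both of the others turned down, Psmb9 minus Psmb6 at -0.33 and Psmb8 minus Psmb5 at -0.12.

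The constitutive beta ring had 2 of 7 genes lower and none higher, and all 7 differences were below 0, with a median of -0.56. Over all genes tested, 13.2% were lower and 9.7% higher, and 50.8% of differences were above 0. Psmb4, a structural subunit without a protease site, ran from 2.82 over a median of 3.52 to 4.03 in carcinomas, against 3.71, 4.27 and 5.41 in normal glands. In 8 of 13 carcinomas it lay below every normal gland and in 4 of 6 normal glands above every carcinoma. The difference was -0.86 ± 0.23 (adjusted p = 0.0111), and it passed in all 19 fits without 1 sample. Within slide 3, where gland 6 is the only normal gland, Psmb4 differed by 0.07.

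Psmb6, the constitutive caspase-like subunit, had values from -0.03 over a median of 0.51 to 1.14 in carcinomas, against 0.34, 1.21 and 2.14 in normal glands. Normal glands 2, 3 and 4 were above every carcinoma, and the other 3 lay among them. The difference was -0.74 ± 0.25 (adjusted p = 0.0353), and leaving out normal gland 2 (-0.57, adjusted p = 0.125), 3 (-0.57, 0.126) or 4 (-0.68, 0.077) ended the call. It turned to 0.16 within slide 3 and to 0.07 with array brightness as a covariate. The windows of Psmb6 (chr10:55737638-55737937, plus strand) and Psmb5 (chr15:32047330-32047629, minus strand) are shown because each holds TGACNNNGC, 24 and 60 bases before the start, an element present in 8 of the 40 windows and in 12.1% of all windows.
Psmb6: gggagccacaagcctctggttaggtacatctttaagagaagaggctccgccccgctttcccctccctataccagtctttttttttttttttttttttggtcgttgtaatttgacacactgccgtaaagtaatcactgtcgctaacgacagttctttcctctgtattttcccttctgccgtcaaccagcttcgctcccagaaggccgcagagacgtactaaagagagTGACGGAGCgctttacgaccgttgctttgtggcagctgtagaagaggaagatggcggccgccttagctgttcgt
Psmb5: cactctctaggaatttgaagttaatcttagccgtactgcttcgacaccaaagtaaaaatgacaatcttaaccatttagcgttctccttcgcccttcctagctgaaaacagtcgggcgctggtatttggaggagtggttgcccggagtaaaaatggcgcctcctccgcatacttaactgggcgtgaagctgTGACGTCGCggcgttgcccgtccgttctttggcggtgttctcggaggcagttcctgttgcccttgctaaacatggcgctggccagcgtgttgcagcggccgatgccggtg

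Psmb5, the constitutive chymotrypsin-like subunit, ranged from 2.27 over a median of 3.39 to 4.37 in carcinomas, against 2.60, 4.06 and 4.80 in normal glands. Its 3 highest normal glands exceeded every carcinoma, and the difference of -0.56 ± 0.31 did not pass (adjusted p = 0.203). Without normal gland 6 it passed at -0.83 (adjusted p = 0.043). Psmb7, the trypsin-like subunit, ran from 0.61 over 1.14 to 1.83 in carcinomas, against 0.57, 1.46 and 1.92 in normal glands, largely the same range, with a difference of -0.20 ± 0.23 (adjusted p = 0.588). Psmb1, a structural ring subunit, ran from 0.56 over 1.19 to 1.65 in carcinomas, against 0.96, 1.61 and 2.63 in normal glands. Only 2 carcinomas were below every normal gland, and its difference of -0.56 ± 0.22 did not pass (adjusted p = 0.0754), although it did without normal gland 1 (-0.72, adjusted p = 0.029) or normal gland 6 (-0.70, 0.033). The structural subunits Psmb2 and Psmb3 differed by -0.38 and -0.41 and did not pass, with Psmb3 passing without normal gland 6 (-0.60, adjusted p = 0.049). All 7 differences were below 0 under normexp too (median -0.46), but there the median of all genes was itself -0.37, and Psmb2, Psmb3 and Psmb7 lay above it by 0.08, 0.04 and 0.24. Under quantile scaling all 7 were below 0 (median -0.27, against 0.09 for all genes), whereas 6 of 7 were above 0 with array brightness as a covariate (median 0.12) and within slide 3 (median 0.31).

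The alpha ring had 1 gene higher and 1 lower among 8, with a median of 0.12. These shares were close to those over all genes tested, 9.7% higher and 13.2% lower. Psma1 ran from 2.18 over a median of 2.44 to 3.27 in carcinomas, against 1.83, 1.95 and 2.43 in normal glands. In 5 of 6 normal glands it was below every carcinoma, and the exception overlapped with the middle of the carcinoma range. The difference was 0.54 ± 0.17 (adjusted p = 0.0254), and leaving out normal gland 2 (adjusted p = 0.057) or 3 (0.070) ended the call. Psma6 ran from 3.38 over 3.87 to 4.30 in carcinomas, against 3.95, 4.30 and 5.34 in normal glands. Of the carcinomas, 9 lay below every normal gland. Its difference of -0.55 ± 0.18 (adjusted p = 0.0324) was not called with normal gland 2 (-0.37, 0.115), 3 (-0.55, 0.068) or 4 (-0.53, 0.063) left out, nor under quantile scaling (-0.22, 0.299) or with array brightness as a covariate (-0.09, 0.899). RefSeq lists 5 pseudogenes of Psma6, and cross-hybridisation was not tested.

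Psma2 ran from 1.15 over 1.40 to 2.26 in carcinomas, against 0.71, 1.12 and 1.74 in normal glands, with a difference of 0.34 ± 0.18 that did not pass (adjusted p = 0.170). In 4 of 6 normal glands it lay below every carcinoma. Psma3, Psma4, Psma5 and Psma7 differed by 0.19, 0.05, -0.24 and -0.23 and did not pass. Psma8, the alpha subunit known from testis, exceeded background clearly in 9 of 13 carcinomas and in 1 of 6 normal glands. Its values spanned -7.68 to -3.13 in carcinomas and -6.96 to -3.43 in normal glands, and the fitted difference of 0.91 ± 0.68 did not pass (adjusted p = 0.358). Under normexp it was -0.59, so no direction was read for Psma8.

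The regulatory particle had 1 gene higher (6.25%) and none lower among its 16 subunits, against 9.7% higher and 13.2% lower over all genes tested. All 6 ATPases had differences below 0, none passed, and their median was -0.12. The sign was not shared by all 6 under other scalings, with 3 of 6 above 0 under normexp and 4 of 6 under quantile scaling. Psmc5 differed by -0.30 and Psmc6 by -0.43 (adjusted p = 0.120 and 0.289), and Psmc1, Psmc2, Psmc3 and Psmc4 lay between -0.19 and -0.04. The 10 non-ATPases had a median of 0.13, with 6 above 0. Psmd12, a subunit of the lid, ran from 2.23 over a median of 2.64 to 3.09 in carcinomas, against 1.90, 2.28 and 2.51 in normal glands. It was above every normal gland in 9 of 13 carcinomas. The difference of 0.40 ± 0.14 (adjusted p = 0.0452) was close to the threshold and did not pass in 12 of 19 fits without 1 sample, those without normal glands 1, 3, 4 or 5 or carcinomas 2, 5, 7, 9, 10, 11, 12 or 13, where adjusted p reached 0.122.

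Psmd2, a scaffold of the base that receives substrates, ran from 3.52 over 3.96 to 4.38 in carcinomas, against 3.29, 3.72 and 4.04 in normal glands. Both groups overlapped for most samples, and the difference of 0.29 ± 0.14 did not pass (adjusted p = 0.148). It passed under normexp (0.40, adjusted p = 0.031) and quantile scaling (0.51, 0.019). The ubiquitin receptor Psmd4 differed by -0.05 and the deubiquitinase Psmd14 by 0.09. Psmd8 had the lowest difference of the non-ATPases, -0.44 (adjusted p = 0.124), and Psmd1, Psmd3, Psmd6, Psmd7 and Psmd13 lay between -0.07 and 0.20.

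The 3 chaperones that assemble the base of the regulatory particle had differences of both signs, and 1 of them passed, as lower. With only 3 genes this is 33.3%, against 13.2% lower over all genes tested. Psmd9 ran from 1.69 over a median of 2.08 to 2.96 in carcinomas, against 2.40, 2.79 and 3.26 in normal glands, and was below every normal gland in 10 of 13 carcinomas. The difference was -0.62 ± 0.19 (adjusted p = 0.0250), and leaving out normal gland 2 (adjusted p = 0.082) or 3 (0.079) ended the call. With array brightness as a covariate Psmd9 was -0.17 (adjusted p = 0.821). For the second Psmd9 probe the difference was -0.38, not called (0.395 after adjustment over all probes). Psmd10, also known as gankyrin, ran from -0.65 over -0.16 to 0.32 in carcinomas, against -0.45, 0.16 and 0.70 in normal glands. Of the 6 normal glands, 2 were above every carcinoma, and the difference of -0.40 ± 0.18 did not pass (adjusted p = 0.112). Psmd5 had the opposite sign, with values from -2.02 over -1.15 to 0.25 in carcinomas, against -2.26, -2.03 and -1.11 in normal glands. It was above every normal gland in 6 carcinomas, led by carcinomas 6 and 9, and differed by 0.74 ± 0.30 (adjusted p = 0.0850). With slide as a block Psmd5 passed at 0.84 (adjusted p = 0.005).

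The activator caps had no gene that passed, with 2 differences below 0 and 2 above. Psme1 and Psme2 form the interferon-inducible PA28 cap. Psme1 ran from 3.43 over a median of 4.38 to 4.79 in carcinomas, against 4.13, 4.97 and 5.64 in normal glands. In 3 of 6 normal glands Psme1 was above every carcinoma, and the difference of -0.57 ± 0.21 was just outside the threshold (adjusted p = 0.0561). It passed without normal gland 1 (adjusted p = 0.049), normal gland 6 (-0.73, 0.015) or carcinoma 1 (0.049). Psme2 ran from 3.17 over 4.20 to 4.69 in carcinomas, against 4.03, 4.65 and 4.97 in normal glands, and 3 normal glands again exceeded every carcinoma. Its difference was -0.49 ± 0.21 (adjusted p = 0.108). Among number-coded samples alone both passed, Psme1 at -0.71 (adjusted p = 0.030) and Psme2 at -0.68 (0.038). Within slide 3 both lay above 0, Psme1 at 0.31 and Psme2 at 0.38, and with array brightness as a covariate they were -0.02 and -0.16.

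Psme3 forms a nuclear cap that is not induced by interferon. It ran from -1.19 over a median of -0.49 to 0.37 in carcinomas, against -1.63, -1.14 and -0.51 in normal glands. Psme3 was above every normal gland in 7 of 13 carcinomas, and the difference of 0.56 ± 0.24 did not pass (adjusted p = 0.0952). It passed once slide (0.68, adjusted p = 0.007), scan day (0.58, 0.029) or sample code (0.61, 0.033) entered the fit as a block. Psme4, the PA200 cap, ran from 0.89 over 1.59 to 3.13 in carcinomas, against 0.44, 1.50 and 1.88 in normal glands, with carcinoma 7 at the top. Its difference of 0.36 ± 0.26 did not pass (adjusted p = 0.346), and a second probe gave 0.51. Psmf1, an inhibitor of the core particle, ran from 0.95 over 1.54 to 1.91 in carcinomas, against 1.05, 1.47 and 1.77 in normal glands, much the same range, and differed by 0.08 ± 0.14 (adjusted p = 0.743). Psmc3ip and Psme3ip1 differed by 0.27 and 0.21 and did not pass.

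**Figure D3:**
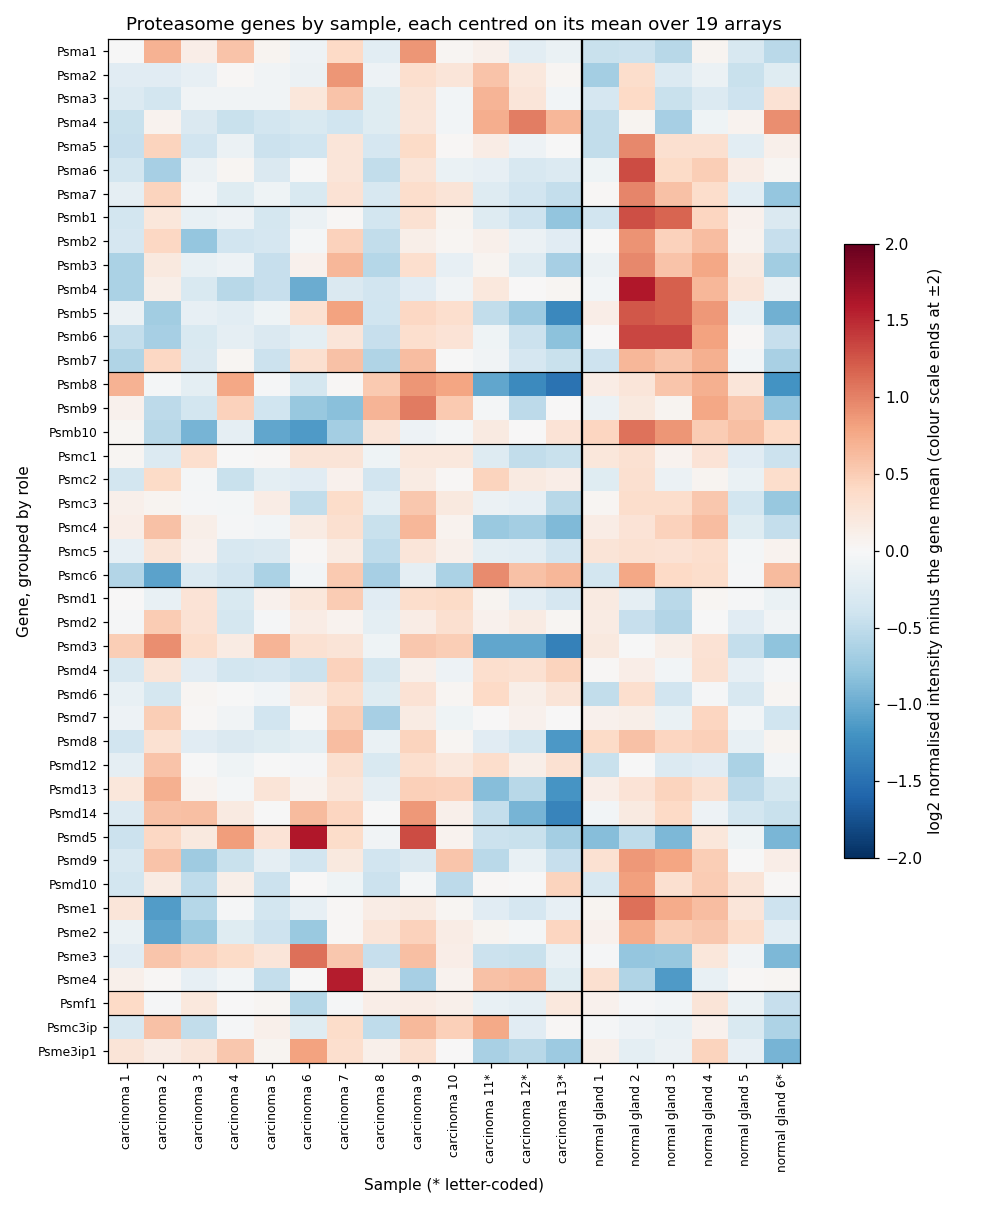
Log2 intensity of 43 genes (all members but Psma8) in each sample, carcinomas on the left and normal glands on the right, each gene centred on its mean over the 19 arrays and grouped by role. Normal glands 2, 3 and 4 are high for the beta ring while normal gland 6 is low, and the letter-coded samples, marked with a star, are low for Psmb8.

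Normal glands differed among themselves more than carcinomas did for the beta ring and for most of the alpha ring. The SD was smaller in carcinomas than in normal glands for 7 of 7 beta ring genes (medians 0.36 and 0.69) and 6 of 8 alpha ring genes (0.32 and 0.50). Among all genes 38.4% had the smaller SD in carcinomas, as did 2 of 6 ATPases and 2 of 10 non-ATPases. For the immunoproteasome genes none of 3 had it, and no test of these spreads was made. Normal gland 2 was the highest of the 6 normal glands for 21 of the 42 genes and for 6 of 7 beta ring genes, against 17.0% of all genes. Normal gland 6 was the lowest for 21 of the 42 genes and for 6 of 7 beta ring genes, against 23.0% of all genes. Of the 7 alpha ring genes without Psma8, gland 2 was highest for 5 and gland 6 lowest for 1. These genes share arrays and scaling and are not independent of each other.

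The descriptions code 4 samples by letters, normal gland 6 and carcinomas 11, 12 and 13, and the other 15 by numbers, a division picked out with the values in view and whose meaning is not given. Psmb8 was 1.23, 0.99 and 0.78 in carcinomas 11, 12 and 13 and 1.07 in normal gland 6, and the number-coded samples had values of 1.91 to 3.15. The letter-coded samples were thus lower than all others in both tissues. Tap1 showed the same order, -2.49 to -2.20 in letter-coded and -1.90 to 0.21 in number-coded samples, and Psma4 the reverse, 3.72 to 4.08 in letter-coded and 2.40 to 3.30 in number-coded samples. In all, 6 of the 44 genes had letter-coded values outside the range of the number-coded, Psmc4, Psmd3, Psmd14 and Psme3ip1 below it besides those named. That is 13.6%, against 4.47% of all genes, and no test was made. All 4 letter-coded arrays lay on slide 3, along with number-coded carcinomas 8 and 10, whose Psmb8 values were 2.78 and 3.05.

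Among the 10 number-coded carcinomas the 3 immunoproteasome subunits had the same tumours in their upper and lower 5. Carcinomas 1, 4, 8, 9 and 10 had the 5 highest values of all 3 genes. How many other genes split these carcinomas in the same way was not counted, so how unusual the split is remains unknown. In these 5, Psmb8 was at least 2.78, Psmb9 at least 3.36 and Psmb10 at least 3.39. In carcinomas 2, 3, 5, 6 and 7, Psmb8 was at most 2.28, Psmb9 at most 2.90 and Psmb10 at most 3.01. Both sets held carcinomas of slides 1 and 2, and carcinomas 8 and 10 were on slide 3. The points fall into separate groups of under 6, so neither a correlation over them nor a ranking of other genes by likeness to these subunits is given. Carcinomas 11, 12 and 13 combined the lowest Psmb8 with Psmb10 values of 3.74, 3.57 and 3.83, among the highest of the carcinomas.

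**Figure D4:**
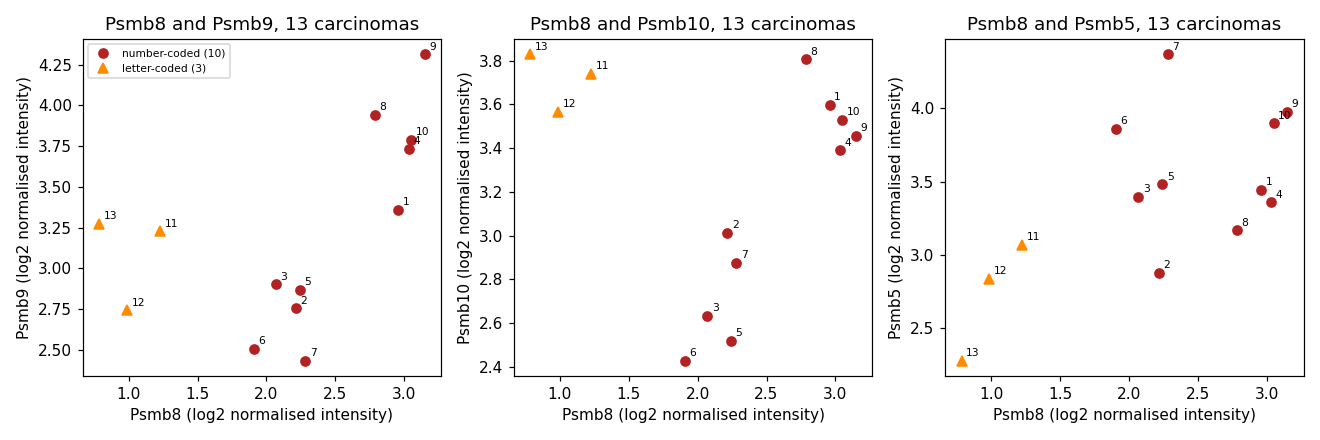
Psmb8 (x axis) against Psmb9, Psmb10 and Psmb5 (y axes), log2 intensity relative to the array's 75th percentile, in 13 carcinomas marked by their number. The 5 number-coded carcinomas 1, 4, 8, 9 and 10 lie apart from 2, 3, 5, 6 and 7 for Psmb9 and Psmb10 but not for Psmb5, and the 3 letter-coded ones lie at the left in every panel.

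Relations between genes across the 13 carcinomas were examined for 16 pairs chosen by role, of which 4 lie within the constitutive particle. They do not describe all its genes, and no level of r for pairs that share only the array scaling was measured. Psmb5 with Psmb6 had Pearson's r of 0.85 and Spearman's rho of 0.74 (permutation p = 0.00021 and 0.0055, adjusted 0.00112 and 0.0176), and r of 0.75 without the 2 carcinomas farthest from the median. Psmb5 with the base subunit Psmd1 had r of 0.85 and rho of 0.85, and r of 0.77 without 2 carcinomas. Psmc1 with Psmd1 had r of 0.80 and rho of 0.80, and r of 0.74 without 2. Psma1 with Psmb1 had r of 0.79 and rho of 0.82, and r of 0.58 without carcinomas 2 and 9. Psme1 with Psme2, partners in 1 cap, had r of 0.74 and rho of 0.67, and 0.66 without 2. For this pair rho was 0.61 under normexp (adjusted permutation p = 0.0631) and 0.53 under quantile scaling (0.092), and r without 2 carcinomas was 0.41 and 0.44. Adjusted permutation p for the 4 relations after the first was at most 0.00733 for r and 0.0394 for rho. Over the 10 number-coded carcinomas the 5 values of r were 0.88, 0.84, 0.82, 0.81 and 0.85. Centred on their slide, the 5 values over 13 carcinomas were 0.87, 0.86, 0.78, 0.69 and 0.74, in the order given. Psmd1 with Nfe2l1, the factor that raises proteasome genes when the proteasome is blocked, had r of 0.24 and rho of -0.07 (permutation p = 0.457 and 0.822). Slides held too few carcinomas for a value within each, and all points share the array scaling.

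Genes that work with the immunoproteasome gave 1 fall among 11 tested genes of class I antigen presentation, with a median of 0.07, which is a smaller share than the 13.2% lower over all genes tested. This was B2m, the light chain of class I molecules, with values of 4.01 over a median of 4.69 to 5.34 in carcinomas, against 5.36, 5.79 and 6.29 in normal glands. As with Psmb10, every carcinoma lay below every normal gland, a separation that 1.93% of all genes tested showed. B2m differed by -1.11 ± 0.20 (adjusted p = 0.0009). Tap1 and Tap2, the peptide transporter, differed by 0.32 ± 0.42 and 0.07 ± 0.21 and did not pass (adjusted p = 0.625 and 0.861). Among 25 interferon signalling genes, 1 was higher and 1 lower, with a median of 0.09, again below the shares over all genes. The antiviral gene Mx2 was higher at 0.94 ± 0.32 (adjusted p = 0.0396) and the receptor gene Ifngr1 lower at -1.21 ± 0.20 (adjusted p = 0.0003). The transcription factor Irf1 differed by -0.53 ± 0.28 and did not pass. Nlrc5 and Ifng were not analysed here. Of the leukocyte markers, Cd163 differed by -3.20, Klrd1 by -2.66, with 2 of 13 carcinoma arrays well above background, and Laptm5 by -1.84, all lower, and Ptprc, which encodes CD45, was lower at -1.05 ± 0.37 (adjusted p = 0.0475).

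Genes that build and supply the proteasome gave 1 fall among 13 tested assembly and associated factors, with a median of 0.21, also below the share over all genes. Psmg4, an assembly chaperone of the core, was lower at -0.69 ± 0.24 (adjusted p = 0.0454), and Pomp, the maturation protein of the core, differed by -0.55 ± 0.20 (adjusted p = 0.0578). Of 6 ubiquitin and ubiquitin-activating genes, 2 were lower and 1 was higher. These are 33.3% and 16.7%, against 13.2% and 9.7% over all genes, in a list where 1 gene makes up 16.7%. Rps27a, which encodes ubiquitin fused to a ribosomal protein, was lower at -0.79 ± 0.25 (adjusted p = 0.0281), and the activating enzyme gene Uba1 was higher at 0.48 ± 0.15 (adjusted p = 0.0308). Of 10 genes in the Nfe2l1 pathway, 1 was lower (10%, against 13.2% over all genes) and none was higher. This was the small Maf factor gene Maff, at -1.21 ± 0.33 (adjusted p = 0.0123). Nfe2l1 itself differed by -0.37 ± 0.24 (adjusted p = 0.290).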

How the data were processed

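RNA from 13 carcinomas and 6 normal glands was measured on single-colour arrays. Per the file headers and the submitters' processing notes, Agilent Feature Extraction 10.7.3.1 produced the deposited scanner files, which hold each spot's background-subtracted intensity. A series table that the authors deposited on the log2 scale equalled the log2 intensities here up to a shift per array. Scaling of that table is not stated in the labels.

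Control spots were removed, spots marked uneven (403 to 1069 per array) were set to missing, and the 75th percentile of each array was subtracted from its log2 intensities. Replicate spots were averaged per probe. Symbols came from RefSeq accessions (GRCr8 gene table), giving 18005 of 30367 probes a symbol. A probe was kept if well above background on at least 6 arrays, and the brightest kept probe stood for a gene. The array design rests on another assembly, so no array coordinates are given. Differences were tested 2-sided with limma 3.58.1 in R 4.3.3 (trended variance, group as the only term), after a check on simulated data. Normexp background correction (offset 50) used median spot intensity because the files hold no mean.

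Members and lists were chosen with earlier results of these data known. Named were Psmb5 to Psmb10, Psme1 to Psme4, Psmf1, the 5 further members with the smallest p per direction, the 3 smallest adjusted p that passed in each context list, and Tap1, Tap2, B2m, Irf1, Nfe2l1, Pomp and Ptprc. Some other genes that the rule names are not reported here. Some other values, of samples or genes at the edge of a range, were chosen after they were seen. Alternatives covered background, normalization, filters, probe choice, flags, variance model, slide, scan day, code series, brightness, cell scores, the replicate block and single samples. The number of arrays limits the precision.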

Additional observations from a re-analysis of the deposited data

Results flagged for a closer look

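Psmb8 in normal gland 6 was far from the other normal glands. Its value was 1.07, against a nearest value of 2.42 and a highest of 2.97, so the gap made up 0.709 of the range of the 6 glands, above the critical value of 0.625. It was 1 such sample among 44 genes examined, and chance gives about 1 in 20 groups. Normal gland 6 is the letter-coded gland, and the letter-coded carcinomas had Psmb8 values of 1.23, 0.99 and 0.78. Whether the code, slide 3 or the gland itself goes with the value was not tested.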

How the results depend on the processing

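Subunit genes higher and lower numbered 2 and 5. Under other settings the higher count was 1 without an intensity trend in the variance and with the luminal score as a covariate, 4 with a block for scan day or for sample code, and 0 within each of slides 1, 2 and 3 and with array brightness or the leukocyte score as a covariate. The lower count was 8 among number-coded samples, 1 within slide 1, and 0 within slides 2 and 3 and with brightness or the leukocyte score. Leaving out 1 sample gave 0 to 2 higher and 2 to 9 lower. Whether replicate numbers pair samples is not stated. Deviations from the group means in same-numbered samples had r of -0.12 to 0.24. This cannot decide it, because differently numbered samples were not compared. The replicate block over the 12 samples numbered 1 to 6 gave 1 higher and 3 lower. Called values that changed sign were Psmb4 within slide 3 (0.0713) and Psmb6 within slide 3 (0.158) and with brightness (0.0701). Among values that were not called, sign changes included Psmb9 minus Psmb6 and Psmb8 minus Psmb5 within slide 2 (-0.33 and -0.12), Psma8 under normexp (-0.59) and Psme1 and Psme2 within slide 3 (0.31 and 0.38). The correlation of Psmb8 with Psmb10 also changed sign, at -0.06 over 13 carcinomas and 0.89 over the 10 number-coded ones, but these form separate groups and neither value is read as a relation. The cause of these shifts was not tested. Covariates and single slides left few calls over all genes: 11 higher and 172 lower with brightness, 22 and 141 with the leukocyte score, and 0 and 31 within slide 3. The median of all genes was -0.37 under normexp, 0.16 within slide 2, 0.12 with brightness and -0.11 without a filter. The pair shifts without 1 sample ran from -0.90 to -0.65 (Psmb10 minus Psmb7), 0.40 to 0.76 (Psmb9 minus Psmb6) and 0.24 to 0.52 (Psmb8 minus Psmb5). Psmb10 kept its direction in all 38 alternatives and passed in 34. It did not pass in the other 4: slide 2 alone, slide 3 alone, brightness and the leukocyte score. The 38 are not independent checks, because 19 of them left out 1 sample each. With 1 probe for Psmb10, the settings for probe choice left its values as they were.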
